A study of Mus musculus with 7 samples.

Results

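The genes described here encode enzymes and regulators of sterol and fatty acid synthesis. They are 32 rows of a deposited table of 26286 gene rows, chosen by gene symbol: 13 sterol synthesis enzymes, 5 genes of the SREBP control system, and 14 genes that make, lengthen or desaturate fatty acids. All 32 have a row, and 31 passed the filter on low counts that was applied to the whole table. The libraries are polyA RNA-seq of mouse brain cells labelled as cortical neurons, from male C57BL/6 embryos at E16.5, 4 from KAT7 mutant and 3 from wild type mice. KAT7 is a histone acetyltransferase. The labels name no allele, no Cre driver and no method of cell isolation, and they do not state whether each library comes from its own animal, so p-values measure the spread between these libraries, which may in part be technical. Values below are CPM, the usual depth-scaled unit: the deposited count of a gene divided by the size of its library, itself scaled with edgeR's TMM factor. Means are given ± SD with n = 4 for KAT7 mutant and n = 3 for wild type, and each log2 fold change divides KAT7 mutant by wild type and carries its standard error after ±.

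Cholesterol is built from acetyl-CoA through mevalonate, farnesyl diphosphate, squalene and lanosterol, and the same acetyl-CoA, carboxylated to malonyl-CoA, is the building block of palmitate, which elongases and desaturases convert into longer and unsaturated fatty acids. The SREBP transcription factors, made by Srebf1 and Srebf2, activate the genes of both routes. They are held in the endoplasmic reticulum by the Insig proteins and escorted to the Golgi by Scap when sterol is low. Brain cells make their own cholesterol, because lipoproteins of the blood do not cross the blood-brain barrier.

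The libraries held 8272487 to 8730911 counts in KAT7 mutant and 8354636 to 8813060 counts in wild type. Kat7 itself measured 0.351, 0.464, 0.354 and 1.22 CPM in KAT7 mutant libraries and 103, 97.0 and 96.6 CPM in wild type libraries, so every label matched its genotype. Of all rows, 13681 genes were tested with edgeR's quasi-likelihood test. At a Benjamini-Hochberg adjusted p under 0.05, the threshold for a gene called here, 1793 genes (13.1%) were higher and 2163 (15.8%) lower in KAT7 mutant libraries, 28.9% in all. Summed markers of neurons lay at 7840 to 8105 CPM in KAT7 mutant and 7725 to 8339 CPM in wild type, with 4 of 9 higher, Tbr1 and Rbfox3 by the largest fold, and 2 lower. Summed markers of radial glia, the progenitors of the cortex, lay at 177 to 216 CPM in KAT7 mutant and 240 to 260 CPM in wild type, with 5 of 7 tested markers lower, Pax6, Hes5 and Nes by the largest fold. Those of interneurons lay at 240 to 330 CPM in KAT7 mutant and 173 to 259 CPM in wild type, 3 of 5 higher (Gad2, Gad1, Dlx2). Those of the oligodendrocyte lineage lay at 47.8 to 65.3 CPM in KAT7 mutant and 44.0 to 53.6 CPM in wild type, 4 of 9 higher (led by Sox10, Olig2 and Olig1) and 1 lower. Astrocyte markers summed to 120 to 146 CPM in KAT7 mutant and 140 to 150 CPM in wild type, with Gfap and Aldoc lower among 4 tested. S100b stayed under 1 CPM everywhere. Microglial markers summed to 22.7 to 30.4 CPM in KAT7 mutant and 13.5 to 17.4 CPM in wild type, with Csf1r, C1qb and C1qa higher among 5 tested and P2ry12 under 1 CPM in every library. Endothelial markers summed to 5.08 to 7.46 CPM in KAT7 mutant and 4.87 to 6.41 CPM in wild type, with none of 3 called and Cldn5 under 1 CPM. Red cell markers summed to 52.5 to 162 CPM in KAT7 mutant and 22.2 to 129 CPM in wild type, with none of 4 called. In such bulk libraries fewer cells of a type and less RNA per cell cannot be told apart, and the part of these marker differences in the values below was not tested.

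Of the 31 tested members, 13 fell and 1 rose in KAT7 mutant libraries, and 17 did not pass the threshold. The 13 lower members make up 41.9% of the tested members, beside 15.8% lower among all tested genes and 14.6% among the 9315 tested genes with a mean of at least 10 CPM. The members were chosen with earlier results of these data known, so these shares are a description. The members' median log2 fold change was -0.12, beside 0.0025 over all tested genes. None of the members changed more than 1 log2 unit, as 676 of the 13681 tested genes did. The members' median absolute log2 fold change was 0.182. It was 0.165 over all tested genes and 0.128 over those with a mean of at least 10 CPM. The members ran from -0.65 for Srebf1 to 0.22 for Elovl1. In 14 members the 4 KAT7 mutant libraries all lay below the 3 wild type libraries, and in 1, Sqle, they all lay above. Over all tested genes the genotypes did not overlap in 35.3%, and in 18.8% KAT7 mutant lay below. Of the sterol enzymes 5 of 12 fell and 1 rose, with a median of -0.13. Of the fatty acid genes 7 of 14 fell and none rose, with a median of -0.20. No test of the difference between the sterol and the fatty acid genes was made, and the fold changes overlap over most of their range: -0.39 to 0.18 for sterol enzymes and -0.58 to 0.22 for fatty acid genes.

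**Figure D1:**
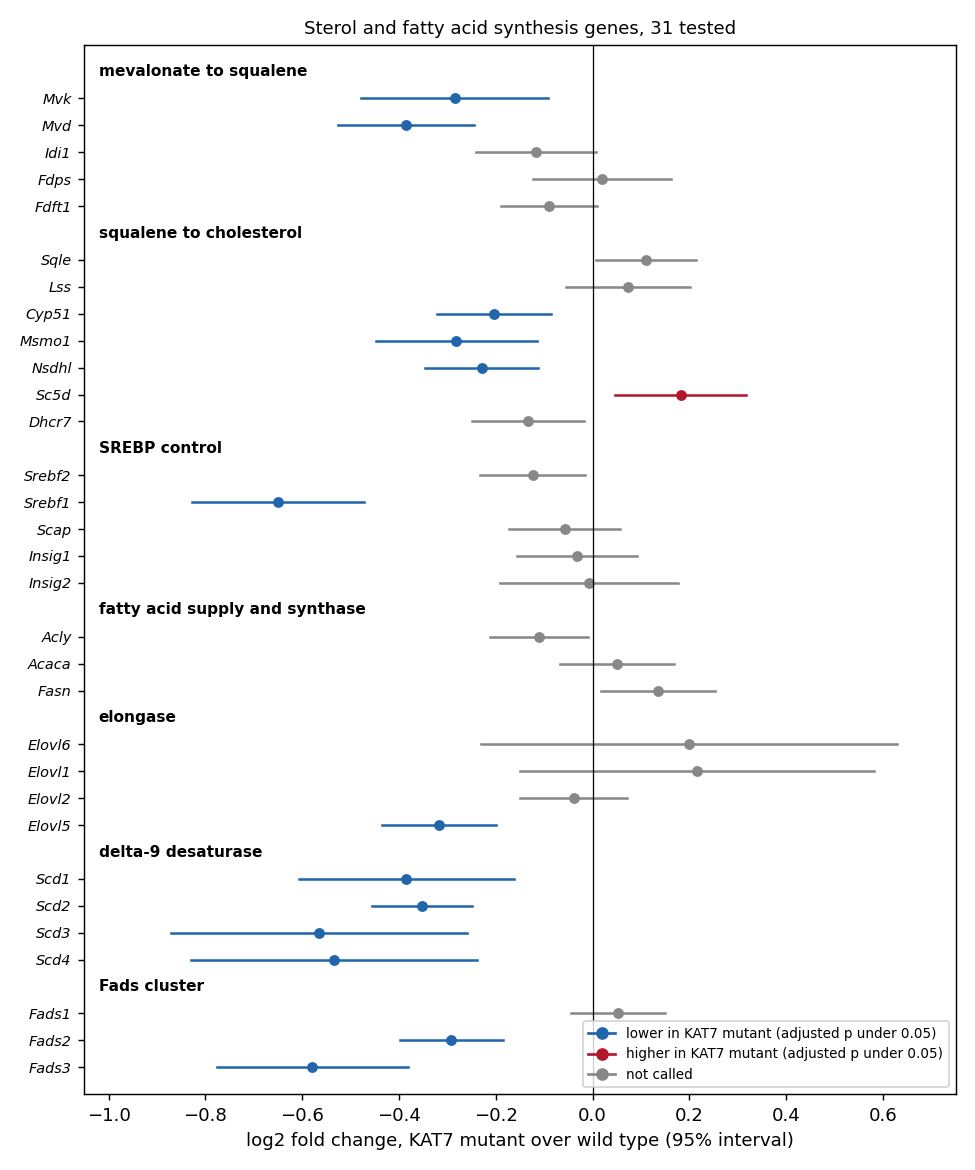
Log2 fold change of KAT7 mutant over wild type for the 31 tested members, grouped by step, with 95% confidence intervals from the edgeR fit. Blue points are lower and red points higher at an adjusted p under 0.05, grey points are not called. The delta-9 desaturases, Srebf1, Fads2 and Fads3 lie left of 0, and Sc5d is the one red point.

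To show what lies in front of these genes, promoter windows of 250 bases before to 50 bases after the annotated start are printed for members on each side of the result. They come from RefSeq, build GRCm38.p6, in which 26 of the 32 members have a window. Fdps, Fdft1, Sqle, Scd1, Scd2 and Fads1 have none in the table used. Capitals mark the CCAAT box (letters CCAAT, or ATTGG when it lies on the other strand), the motif bound by the factor NF-Y, which works together with SREBP at many sterol genes. Mvd and Nsdhl are 2 sterol enzymes that fell and Sc5d the one that rose. Fads3 and Fads2 are neighbouring desaturase genes that both fell, one with and one without the motif.
Mvd: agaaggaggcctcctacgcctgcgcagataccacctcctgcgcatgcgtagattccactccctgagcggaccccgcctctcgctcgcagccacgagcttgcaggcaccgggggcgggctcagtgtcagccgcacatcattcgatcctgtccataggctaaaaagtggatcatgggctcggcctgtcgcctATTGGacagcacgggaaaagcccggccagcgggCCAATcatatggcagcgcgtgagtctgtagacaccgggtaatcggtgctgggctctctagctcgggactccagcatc
Nsdhl: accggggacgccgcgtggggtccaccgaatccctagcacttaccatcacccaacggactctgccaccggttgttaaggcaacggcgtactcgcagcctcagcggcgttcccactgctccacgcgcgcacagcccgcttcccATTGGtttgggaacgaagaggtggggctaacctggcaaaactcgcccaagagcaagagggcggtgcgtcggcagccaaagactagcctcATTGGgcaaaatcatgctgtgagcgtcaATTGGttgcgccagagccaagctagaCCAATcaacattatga
Sc5d: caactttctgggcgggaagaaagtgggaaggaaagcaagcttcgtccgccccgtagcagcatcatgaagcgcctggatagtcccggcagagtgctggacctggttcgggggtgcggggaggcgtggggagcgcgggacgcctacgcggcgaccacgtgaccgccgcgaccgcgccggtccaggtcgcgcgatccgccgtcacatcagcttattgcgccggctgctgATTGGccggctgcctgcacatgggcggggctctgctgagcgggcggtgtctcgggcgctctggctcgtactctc
Fads3: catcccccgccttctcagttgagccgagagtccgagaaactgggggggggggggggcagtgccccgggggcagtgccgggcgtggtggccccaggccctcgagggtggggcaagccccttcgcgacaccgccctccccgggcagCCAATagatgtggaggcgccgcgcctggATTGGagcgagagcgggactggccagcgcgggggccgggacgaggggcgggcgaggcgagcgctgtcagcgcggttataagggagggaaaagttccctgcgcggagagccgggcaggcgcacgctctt
Fads2: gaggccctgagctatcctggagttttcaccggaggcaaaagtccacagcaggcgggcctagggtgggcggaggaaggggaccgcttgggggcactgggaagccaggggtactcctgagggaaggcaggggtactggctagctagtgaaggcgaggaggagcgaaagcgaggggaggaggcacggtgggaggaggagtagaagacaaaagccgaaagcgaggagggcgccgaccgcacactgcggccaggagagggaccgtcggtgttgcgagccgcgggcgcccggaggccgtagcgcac

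The CCAAT box was found, in 10 of 10 sterol enzyme genes with a window, in 4 of 5 SREBP control genes and in 5 of 11 fatty acid genes, beside 41.1% of the 27025 genes of the RefSeq table. The GC box GGGCGG, the motif of Sp1, was found in 10 of 10, 5 of 5 and 5 of 11, beside 38.2%. The E-box CACGTG was found in 2 of 10, 2 of 5 and 1 of 11, beside 8.09%. The core of the sterol regulatory element with 1 free base, TCACNCCAC, the motif of SREBP, occurred in Hmgcs1 only, beside 1.44% of all genes. Both strands were searched for each motif, and no motif contains another. The genes of the RefSeq table were not matched to the members in expression or base composition. These are matches of letters in a short window and not measured binding sites. The printed windows of Mvd, Nsdhl and Sc5d all carry the CCAAT box. Whether any motif relates to the direction of a gene's change was not tested.

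In the first steps of the sterol route, from acetoacetyl-CoA to squalene, 2 of 5 tested enzymes fell and none rose. That is 40.0% lower, beside 15.8% of all tested genes. Mvd, which decarboxylates mevalonate diphosphate to isopentenyl diphosphate, measured 58.0, 58.8, 55.5 and 55.6 CPM in KAT7 mutant libraries and 68.3, 72.9 and 82.0 CPM in wild type libraries. All 4 KAT7 mutant libraries were lower than all wild type libraries and lay close together, while the wild type libraries were more spread. The mean was 57.0 ± 1.65 CPM in KAT7 mutant and 74.4 ± 6.99 CPM in wild type, a log2 fold change of -0.39 ± 0.07 (edgeR adjusted p = 0.000202), the largest change among the sterol enzymes. Mvk, the mevalonate kinase that acts ahead of Mvd, measured 20.3, 22.7, 20.9 and 22.6 CPM in KAT7 mutant libraries and 23.7, 28.3 and 27.0 CPM in wild type libraries. The groups did not overlap, though wild type replicate 1 lay close to the highest KAT7 mutant library. Its log2 fold change was -0.28 ± 0.09 (edgeR adjusted p = 0.0255), a call that ended with DESeq2 (adjusted p = 0.0749) and without KAT7 mutant replicate 1 or 3 or wild type replicate 2 or 3, each left out alone (edgeR adjusted p 0.0511 to 0.124).

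The 3 other tested enzymes of these steps were not called. Idi1, which interconverts the isopentenyl and dimethylallyl forms, measured 86.3 ± 4.72 CPM in KAT7 mutant and 93.5 ± 4.08 CPM in wild type, with a log2 fold change of -0.12 (95% interval -0.24 to 0.01). Fdps, which joins these units into farnesyl diphosphate, measured 47.0 ± 1.57 CPM in KAT7 mutant and 46.3 ± 2.70 CPM in wild type, a log2 fold change of 0.02 (interval -0.12 to 0.16). Fdft1, the squalene synthase, measured 294 ± 9.30 CPM in KAT7 mutant and 313 ± 10.8 CPM in wild type, a log2 fold change of -0.09 (interval -0.19 to 0.01). Fdps shares 1124 exon bases with Gm43738 on its own strand and Fdft1 shares 774 with Ctsb on the opposite strand, and the sources used here do not give the strand setting of the counting. Reads of these pairs may have been shared or lost.

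Hmgcs1, the enzyme that makes HMG-CoA from acetoacetyl-CoA, is listed at 0 counts in all 7 libraries and could not be tested. The rows next to it in the order of the GRCm38.p6 annotation, Ccl28, Nim1k, Zfp131 and AF067063, are also at 0 in every library, while Tmem267 on the other side of Ccl28 had 542 counts summed over KAT7 mutant libraries and 450 over wild type libraries. Of 20833 protein-coding rows in the table, 3944 are at 0 in every library. Why these neighbouring rows are at 0 was not tested, and the entry for Hmgcs1 is not read as a level of its transcript.

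Between squalene and cholesterol 3 of 7 enzymes fell (42.9%, beside 15.8% of all tested genes), 1 rose and 3 were not called. The 3 that fell act on lanosterol or on the sterols made from it. Cyp51, the lanosterol demethylase, measured 325, 367, 364 and 337 CPM in KAT7 mutant libraries and 381, 435 and 388 CPM in wild type libraries. Every KAT7 mutant library was below every wild type library. The resulting log2 fold change was -0.20 ± 0.06 (edgeR adjusted p = 0.00955). Cyp51 shares 166 exon bases with Akap9 on the opposite strand.

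Msmo1, the oxidase that starts removal of the methyl groups at carbon 4, measured 90.4, 121, 121 and 119 CPM in KAT7 mutant libraries and 130, 147 and 135 CPM in wild type libraries. The groups did not overlap, and KAT7 mutant replicate 1 stood well below the other KAT7 mutant libraries. The log2 fold change was -0.28 ± 0.08 (edgeR adjusted p = 0.011). Nsdhl, the dehydrogenase of the next reaction, measured 91.1, 90.3, 99.5 and 96.1 CPM in KAT7 mutant libraries and 107, 110 and 115 CPM in wild type libraries. Again no KAT7 mutant library reached the lowest wild type library. Its log2 fold change was -0.23 ± 0.06 (edgeR adjusted p = 0.00409). The calls of Cyp51 and Msmo1 were lost without wild type replicate 2 (edgeR adjusted p = 0.0920 and 0.0762), and the count of lower sterol enzymes was then 2.

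Sc5d, the desaturase that introduces the double bond at carbon 5, was the one member that rose. It measured 84.7, 101, 101 and 97.2 CPM in KAT7 mutant libraries and 81.6, 87.2 and 84.9 CPM in wild type libraries. Replicates 2 to 4 of KAT7 mutant lay above all wild type libraries, while KAT7 mutant replicate 1 lay among them. Means were 95.9 ± 7.69 CPM in KAT7 mutant and 84.5 ± 2.82 CPM in wild type, with a log2 fold change of 0.18 ± 0.06 (edgeR adjusted p = 0.0401). This call was lost under 9 of 16 alternatives, among them DESeq2 (adjusted p = 0.0607) and leaving out any library except KAT7 mutant replicate 1 (adjusted p 0.0664 to 0.147).

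Sqle, the squalene epoxidase and a rate-limiting enzyme of the late route, measured 375, 397, 398 and 393 CPM in KAT7 mutant libraries and 337, 374 and 375 CPM in wild type libraries. The KAT7 mutant libraries all lay above the wild type libraries, but KAT7 mutant replicate 1 and wild type replicate 3 were almost level. It did not pass the threshold (log2 fold change 0.11 ± 0.05, edgeR adjusted p = 0.103), and without wild type replicate 1 its log2 fold change was 0.058 (edgeR adjusted p = 0.471). Lss, which closes the ring system to lanosterol, measured 102 ± 5.15 CPM in KAT7 mutant and 96.8 ± 7.00 CPM in wild type, with a log2 fold change of 0.07 (95% interval -0.05 to 0.20). Dhcr7, which acts directly after Sc5d, measured 98.4 ± 4.16 CPM in KAT7 mutant and 108 ± 3.93 CPM in wild type. All its KAT7 mutant values lay below the wild type values, and it did not pass the threshold (log2 fold change -0.13, edgeR adjusted p = 0.0782). Sc5d and Dhcr7, which carry out consecutive reactions, thus had fold changes of opposite sign, of which that of Sc5d was called.

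Summed over the sterol enzymes, the level was 1681 to 1793 CPM in KAT7 mutant libraries and 1757 to 1918 CPM in wild type libraries, so the groups overlapped. Wild type replicate 1 was the lowest wild type library for 12 of 12 tested sterol enzymes, for 3 of 5 SREBP control genes and for 8 of 14 fatty acid genes. The mean log2 level of the sterol enzymes in that library, relative to the mean of all 7, was -0.02, within the -0.11 to -0.01 of the KAT7 mutant libraries, while the other wild type libraries both stood at 0.10. Without wild type replicate 1 the count of lower sterol enzymes was 5, as with it.

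**Figure D2:**
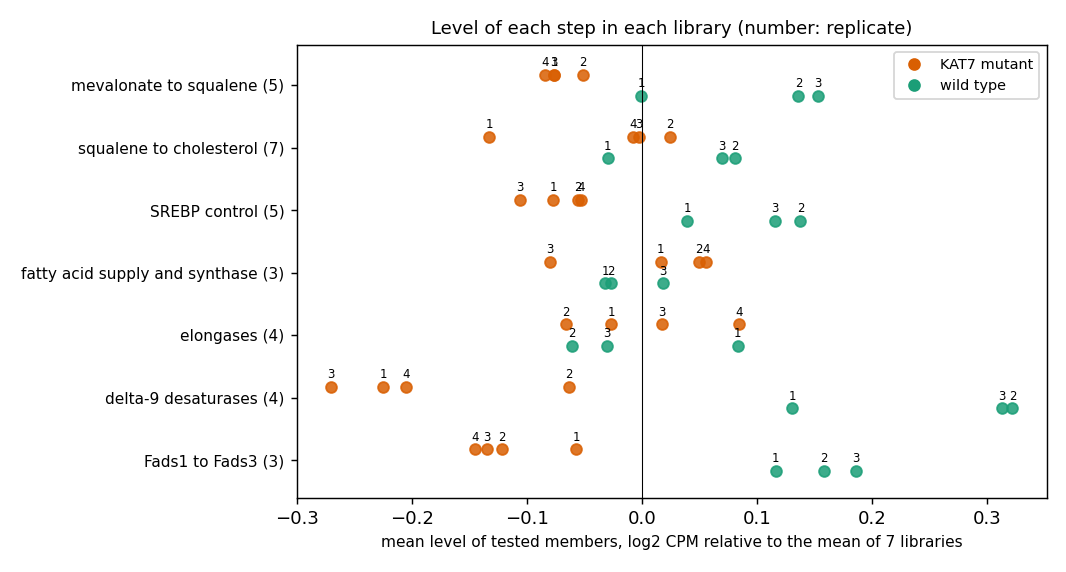
Mean log2 CPM of the tested members of each step in each library, relative to the mean of the 7 libraries, with the replicate number above each point and the number of genes in brackets. All KAT7 mutant points lie left of all wild type points for mevalonate to squalene, SREBP control, delta-9 desaturases and Fads1 to Fads3. The genotypes overlap for squalene to cholesterol, where wild type replicate 1 lies among the KAT7 mutant libraries, for fatty acid supply and synthase, and for elongases.

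Among the SREBP control genes 1 of 5 fell, beside 15.8% lower among all tested genes. This count does not set the control genes as a group apart from all genes. The gene that fell, Srebf1, was the member with the largest change. Srebf1 encodes SREBP-1, of which the form SREBP-1c acts mainly on fatty acid genes. It measured 29.4, 25.9, 27.6 and 27.3 CPM in KAT7 mutant libraries and 38.1, 43.8 and 47.6 CPM in wild type libraries. The groups were well apart, with little spread among KAT7 mutant libraries. Means were 27.6 ± 1.48 CPM in KAT7 mutant and 43.2 ± 4.79 CPM in wild type, a log2 fold change of -0.65 ± 0.08 (edgeR adjusted p = 7.56e-06). Neither direct neighbour on chromosome 11 was called: Rai1, which shares 109 exon bases with Srebf1 on the opposite strand, had a log2 fold change of 0.02 and Tom1l2 of 0.08. The table has 1 row per gene and does not separate the SREBP-1a and SREBP-1c transcripts.

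Srebf2, which encodes SREBP-2, the main activator of sterol genes, measured 366, 357, 324 and 353 CPM in KAT7 mutant libraries and 367, 374 and 403 CPM in wild type libraries. The KAT7 mutant values were all lower, by less than 2 CPM at the closest pair, and the gene did not pass the threshold (log2 fold change -0.12 ± 0.05, edgeR adjusted p = 0.0809). It was called without KAT7 mutant replicate 1 (edgeR adjusted p = 0.0421). Scap, the escort of SREBP, measured 101 ± 4.73 CPM in KAT7 mutant and 105 ± 0.429 CPM in wild type, and its log2 fold change of -0.06 was not called (95% interval -0.17 to 0.06). Of the proteins that retain SREBP, Insig1, itself a target of SREBP, measured 105 ± 5.02 CPM in KAT7 mutant and 108 ± 7.26 CPM in wild type (log2 fold change -0.03, interval -0.16 to 0.09). Insig2 measured 26.4 ± 1.57 CPM in KAT7 mutant and 26.5 ± 1.86 CPM in wild type (log2 fold change -0.01, interval -0.19 to 0.18). All 5 control genes had a negative fold change, as did 6777 of the 13681 tested genes. The intervals of Scap, Insig1 and Insig2 include 0. Insig1 and Insig2 turned positive when certain single libraries were left out.

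**Figure D3:**
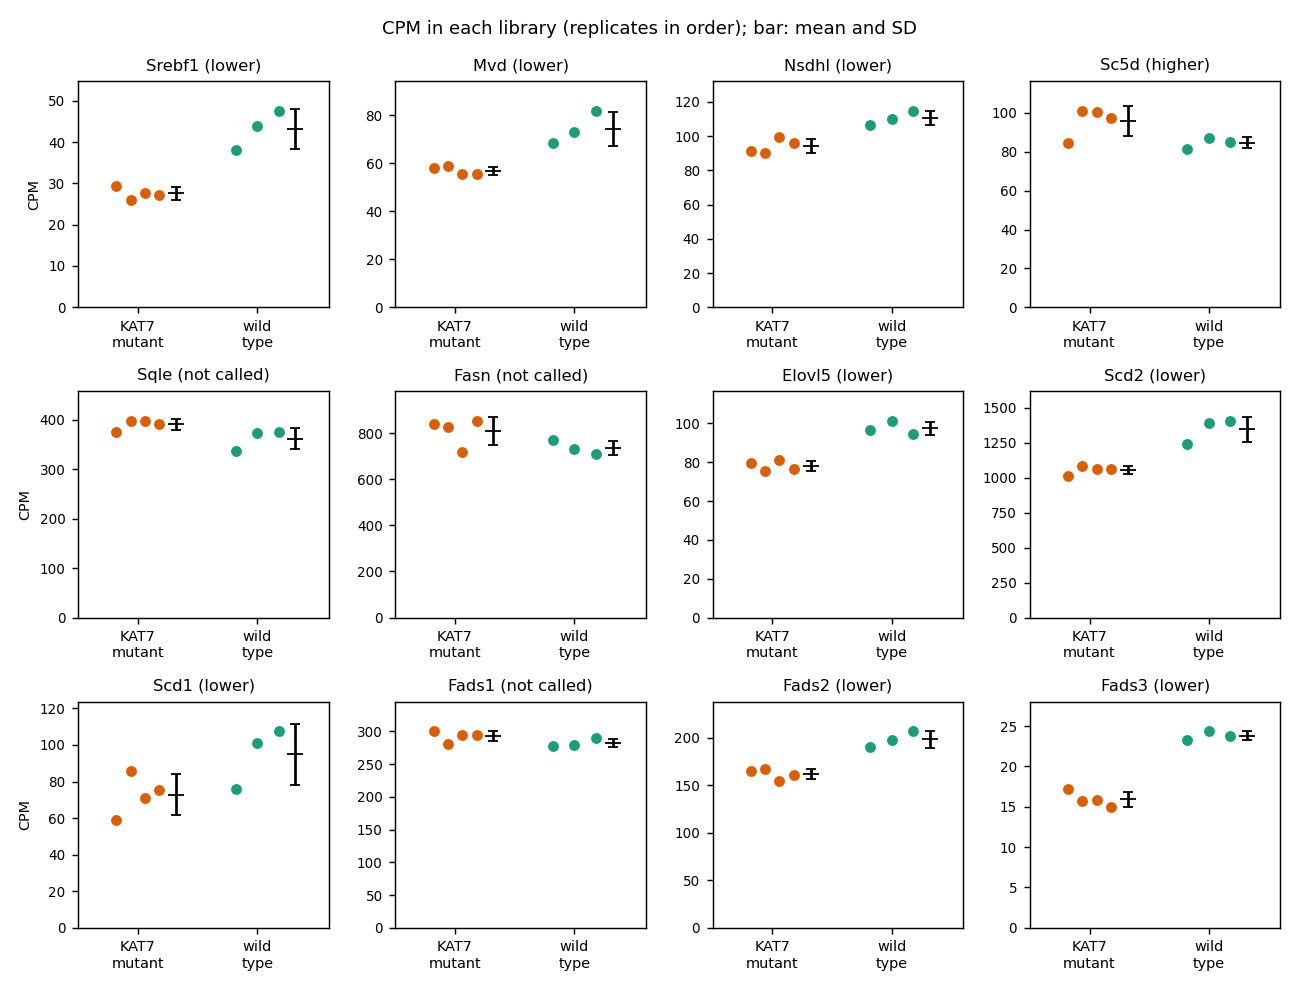
CPM of 12 members in each library, 4 KAT7 mutant libraries (orange) left of 3 wild type libraries (green), replicates in order, with mean and SD as bars; axes start at 0. Srebf1, Mvd, Nsdhl, Elovl5, Scd2, Fads2 and Fads3 show KAT7 mutant libraries below all wild type libraries, Scd1 and Sc5d overlap, and Sqle, Fasn and Fads1 were not called.

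The genes that supply and build palmitate were not called. Acly, which makes cytosolic acetyl-CoA from citrate, measured 440 ± 17.2 CPM in KAT7 mutant and 475 ± 19.0 CPM in wild type (log2 fold change -0.11 ± 0.05, edgeR adjusted p = 0.0925; called without KAT7 mutant replicate 1, at 0.0445). Acaca, the acetyl-CoA carboxylase, measured 220 ± 13.1 CPM in KAT7 mutant and 213 ± 13.0 CPM in wild type (log2 fold change 0.05, 95% interval -0.07 to 0.17). Fasn, the fatty acid synthase, measured 839, 826, 717 and 853 CPM in KAT7 mutant libraries and 770, 731 and 708 CPM in wild type libraries. Replicates 1, 2 and 4 of KAT7 mutant lay above all wild type libraries and replicate 3 lay between them. Its log2 fold change of 0.14 ± 0.06 did not pass the threshold (edgeR adjusted p = 0.0794) but did without KAT7 mutant replicate 3 (adjusted p = 0.00562), when 1 fatty acid gene was higher. Together the 3 genes summed to 1469 ± 79.0 CPM in KAT7 mutant and 1424 ± 6.94 CPM in wild type.

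Of the elongases, which add units to long fatty acyl chains, 1 of 4 fell (25.0%), beside 15.8% lower among all tested genes. Elovl5, which acts on polyunsaturated chains, measured 79.5, 75.7, 81.2 and 76.7 CPM in KAT7 mutant libraries and 96.5, 101 and 94.5 CPM in wild type libraries. The groups were clearly apart, with a narrow range in both. The log2 fold change was -0.32 ± 0.06 (edgeR adjusted p = 0.000228). Elovl2, which extends longer polyunsaturated chains, measured 105 ± 2.75 CPM in KAT7 mutant and 108 ± 3.07 CPM in wild type (log2 fold change -0.04, 95% interval -0.15 to 0.07). Elovl6, the elongase of palmitate, and Elovl1, which acts on saturated very long chains, were too low for a close estimate. They measured 3.59 ± 0.490 and 5.69 ± 0.595 CPM in KAT7 mutant and 3.12 ± 0.236 and 4.90 ± 0.900 CPM in wild type, with intervals of the log2 fold change of -0.23 to 0.63 for Elovl6 and -0.15 to 0.58 for Elovl1.

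The desaturases among the fatty acid genes, Scd and Fads, moved most often. Of these, 6 of 7 fell (85.7%, beside 15.8% of all tested genes) and none rose, with a median log2 fold change of -0.38. All 7 lie on chromosome 19, where 19.0% of the 458 tested genes were lower. The grouping by step was made with the values known, and its counts are a description. The 4 delta-9 desaturases, the Scd genes, which place the first double bond into saturated fatty acids, all fell, and they stand side by side on the chromosome in the order Scd3, Scd2, Scd4, Scd1.

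Scd2, the isoform most abundant here, measured 1016, 1082, 1063 and 1064 CPM in KAT7 mutant libraries and 1243, 1392 and 1408 CPM in wild type libraries. The highest KAT7 mutant library was far below the lowest wild type library. Means were 1056 ± 28.3 CPM in KAT7 mutant and 1348 ± 91.0 CPM in wild type, a log2 fold change of -0.35 ± 0.05 (edgeR adjusted p = 1.89e-05). Scd1, best known from liver and fat, measured 58.9, 85.7, 70.8 and 75.6 CPM in KAT7 mutant libraries and 75.9, 101 and 108 CPM in wild type libraries. Its groups overlapped, since KAT7 mutant replicate 2 exceeded wild type replicate 1. Its log2 fold change was -0.38 ± 0.11 (edgeR adjusted p = 0.00955), and the call ended with DESeq2 (adjusted p = 0.123), with a robust edgeR fit (0.149) and without wild type replicate 2 (0.0586) or 3 (0.0821).

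Scd3 measured 7.59, 9.74, 7.09 and 6.72 CPM in KAT7 mutant libraries and 11.5, 12.9 and 10.2 CPM in wild type libraries. Scd4 measured 8.53, 6.72, 6.26 and 7.46 CPM in KAT7 mutant libraries and 9.86, 10.1 and 11.5 CPM in wild type libraries. In both genes the 2 genotypes did not overlap. The log2 fold change was -0.56 ± 0.15 for Scd3 (edgeR adjusted p = 0.00615) and -0.53 ± 0.14 for Scd4 (edgeR adjusted p = 0.00705). Both are far less abundant than Scd2, and between 3.44% (Scd4) and 6.26% (Scd3) of the 50-base windows of each Scd gene's transcripts occur in another Scd gene, so reads of Scd2 could be counted for a lesser member or lost. How such reads were treated is not stated in the labels. On either side of the 4 genes, Pkd2l1 was not tested and Wnt8b, at 22 counts summed over KAT7 mutant and 49 over wild type libraries, fell (log2 fold change -1.51, edgeR adjusted p = 0.0124).

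The Fads genes also stand side by side, in the order Fads3, Fads2, Fads1. Among them 2 of 3 fell (66.7%), beside 15.8% of all tested genes and 19.0% of those on chromosome 19. Fads2, the delta-6 desaturase that opens the route to polyunsaturated fatty acids, measured 165, 168, 155 and 161 CPM in KAT7 mutant libraries and 190, 198 and 207 CPM in wild type libraries. The groups did not overlap. The log2 fold change of Fads2 was -0.29 ± 0.05 (edgeR adjusted p = 0.000193). Fads3, a desaturase of sphingoid bases, measured 17.2, 15.8, 15.8 and 14.9 CPM in KAT7 mutant libraries and 23.3, 24.4 and 23.8 CPM in wild type libraries. Both genotypes were tight and well apart. For Fads3 the log2 fold change was -0.58 ± 0.09 (edgeR adjusted p = 9.94e-05).

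Fads1, the delta-5 desaturase that acts after Fads2, measured 301, 281, 295 and 294 CPM in KAT7 mutant libraries and 279, 279 and 290 CPM in wild type libraries. The groups overlapped, and its log2 fold change of 0.05 (95% interval -0.04 to 0.15) was not called. The interval of Fads1 and that of Fads2 (-0.40 to -0.19) do not overlap, and the difference between these genes was not tested. Almost no 50-base window is shared among the Fads genes (0, 0.157% and 0.134% for Fads1, Fads2 and Fads3). Beyond Fads3, Rab3il1 fell (log2 fold change -1.20, edgeR adjusted p = 0.000177), and beyond Fads1, Fen1 was not called (log2 fold change 0.14). The printed Fads2 window lacks the CCAAT box and that of Fads3 has 2 copies, and a link between motif and fold change was not tested. The mean log2 level of the 7 desaturases was taken relative to the mean of all 7 libraries. Among KAT7 mutant libraries it was highest in replicate 2 (-0.09) and lowest in replicate 3 (-0.21). Their summed CPM was also highest in replicate 2 (1649) but lowest in replicate 1 (1574).

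Levels between genes can be compared only per length. Per kilobase of the deposited gene length, Scd2 was the highest member in both genotypes, at 194 CPM per kilobase in KAT7 mutant and 247 CPM per kilobase in wild type. Sqle was next at 142 CPM per kilobase in KAT7 mutant and 132 in wild type, then Fads2 at 108 in KAT7 mutant and 132 in wild type. Sc5d stood 11th of 31 in KAT7 mutant and 16th in wild type, and Mvd 17th in KAT7 mutant and 13th in wild type. The lowest was Elovl6, at 0.602 CPM per kilobase in KAT7 mutant and 0.524 in wild type. The members that fell therefore span the range of levels, with Scd2 at the top and Scd3, at 2.24 CPM per kilobase in KAT7 mutant and 3.33 in wild type, near the bottom. Summed CPM of the 4 Scd genes was 1144 ± 38.9 in KAT7 mutant and 1465 ± 108 in wild type, and that of the 4 elongases was 193 ± 4.01 in KAT7 mutant and 214 ± 0.848 in wild type.

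Genes around the 2 routes were taken from lists of textbook members, chosen with earlier results of these data known. Their counts stand beside 15.8% lower and 13.1% higher among all tested genes. Of 8 tested sterol enzymes outside the members, 1 fell (12.5%) and none rose (median log2 fold change -0.07). Tm7sf2, a sterol reductase that acts after Cyp51, measured 10.6, 11.9, 12.2 and 13.2 CPM in KAT7 mutant libraries and 17.6, 16.2 and 18.9 CPM in wild type libraries, with no overlap (log2 fold change -0.55, edgeR adjusted p = 0.000874). Acat2, the thiolase that makes acetoacetyl-CoA, was not called, at 199 ± 6.87 CPM in KAT7 mutant and 212 ± 4.83 CPM in wild type. Of 15 tested genes of sterol transport and sensing, 3 fell and 1 rose (median -0.11). Scarb1, a receptor for high-density lipoprotein, measured 11.1, 9.74, 7.80 and 8.80 CPM in KAT7 mutant libraries and 21.1, 18.7 and 18.9 CPM in wild type libraries. Its KAT7 mutant values were all far lower, with a log2 fold change of -1.06 ± 0.12 (edgeR adjusted p = 1.61e-06). Npc2, which carries cholesterol out of lysosomes, fell with a log2 fold change of -0.45 (edgeR adjusted p = 4.58e-05), and Nr1h2, the sterol-sensing receptor LXR beta, with -0.27 (edgeR adjusted p = 0.0135). Cyp46a1, the neuronal enzyme that hydroxylates cholesterol for export from the brain, rose: 17.8 ± 1.14 CPM in KAT7 mutant and 12.3 ± 1.89 CPM in wild type (log2 fold change 0.54, edgeR adjusted p = 0.0019).

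Of 18 tested genes of fatty acid supply, elongation and activation outside the members, 6 fell (33.3%) and 4 rose (22.2%), with a median of -0.03. Among all tested genes 15.8% were lower and 13.1% higher. Me1, the malic enzyme that provides NADPH, measured 9.46, 9.27, 10.3 and 9.05 CPM in KAT7 mutant libraries and 20.8, 17.4 and 18.6 CPM in wild type libraries. No KAT7 mutant library came near the wild type range, and its log2 fold change was -0.99 ± 0.11 (edgeR adjusted p = 1.45e-06). Slc25a1, which exports citrate from mitochondria to the Acly reaction, measured 77.9 ± 3.28 CPM in KAT7 mutant and 105 ± 2.25 CPM in wild type (log2 fold change -0.44, edgeR adjusted p = 5.45e-06). Acss2, which makes acetyl-CoA from acetate, fell with a log2 fold change of -0.53 (edgeR adjusted p = 0.00104). Acsl1, which activates long-chain fatty acids, rose with 0.67 (edgeR adjusted p = 0.00138), although KAT7 mutant replicate 1 and wild type replicate 1 both measured 15.3 CPM. Of 10 tested genes of fatty acid oxidation and binding, 4 fell (40.0%) and none rose (median -0.23). The 4 were Cpt1a (log2 fold change -0.89) and Cpt2 (-0.83), which carry acyl groups into mitochondria, Acadl (-0.60) and Acadvl (-0.33). Acadl and Acadvl are acyl-CoA dehydrogenases. In this order the edgeR adjusted p was 0.000383, 0.00418, 0.024 and 0.00546. Genes that burn fatty acids and genes that desaturate them were both among those that fell.

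**Figure D4:**
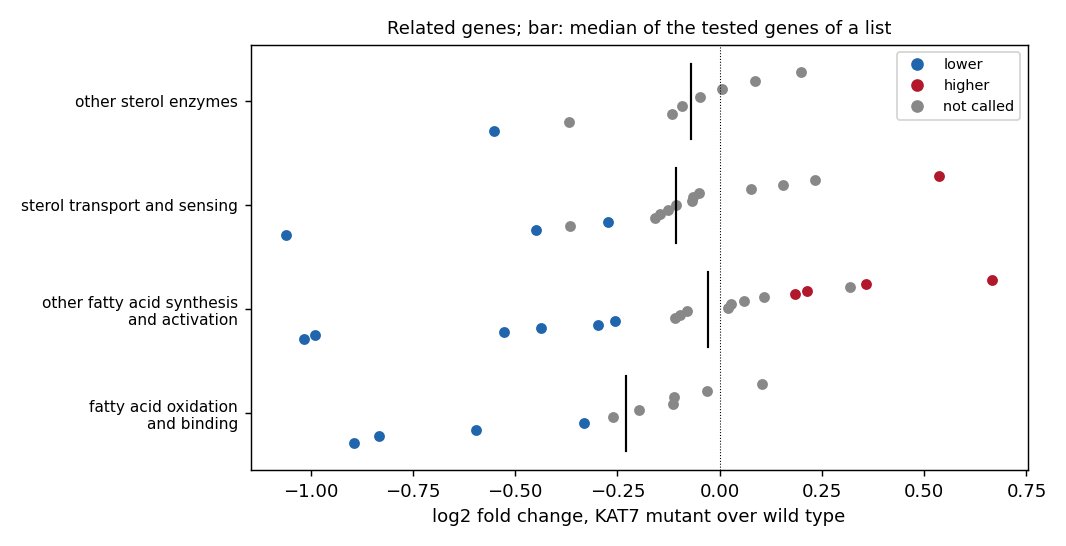
Log2 fold change of KAT7 mutant over wild type for the tested genes of 4 related lists (8, 15, 18 and 10 genes), with the list's median as a bar; blue is lower, red higher and grey not called at an adjusted p under 0.05. The medians lie at -0.07, -0.11, -0.03 and -0.23 from top to bottom, and red points occur for sterol transport and for other fatty acid genes.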

How the data were processed

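The deposited table holds 1 row per gene with raw counts for 7 libraries and a gene length. The counts were made by the authors with featureCounts on build mm9, per the submitters' processing notes. The sources used here do not give the aligner, the versions, the strand setting or the handling of reads that map to several places. The deposited gene length, another value of the authors, was used only for levels per kilobase. Symbols came from a table of gene names matched on the gene ID (24176 of 26286 rows); rows without a symbol held 3.05% to 3.24% of a library's counts and entered the fit.

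Genes were kept by edgeR's filterByExpr (minimum count 10), scaled by TMM and tested with edgeR 4.0.16 quasi-likelihood F tests (R 4.3.3), KAT7 mutant against wild type, with Benjamini-Hochberg adjustment over all 13681 tested genes. DESeq2 1.42.0, limma-voom 3.58.1, other scalings and filters, a replicate block and leaving out each library were alternatives. Libraries of a genotype correlated at 0.991 to 0.993 and differed by more than counting noise, so none was taken as a repeat deposit. Overlapping exons and shared windows came from GENCODE M21, promoters and gene order from RefSeq GRCm38.p6; no coordinates are given because the counts use another build. Intervals are at 95%.

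The members and lists were chosen with earlier results of these data known. All 32 members are named; of each list of related genes up to 4 called genes by fold change with a mean of at least 5 CPM in a genotype, or the 2 most abundant where fewer than 2 were called; of each marker list up to 3 called genes. 2 genes that this rule picks are not reported here. Library totals ran from 8272487 to 8813060 counts, and genes of a few CPM carry wide intervals.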

Additional observations from a re-analysis of the deposited data

Results flagged for a closer look

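Of 35 values checked for a library far from the others among the 4 KAT7 mutant libraries, 2 stood apart by Dixon's ratio; chance alone gives about 1 in 20. Msmo1 measured 90.4 CPM in KAT7 mutant replicate 1, against 119 to 121 CPM in the other KAT7 mutant libraries, and its gap to the nearest library made up 0.958 of the group's range. KAT7 mutant replicate 3 had a sum of 577 CPM over the 5 SREBP control genes, where its fellow KAT7 mutant libraries had 619 to 624 CPM, a ratio of 0.893. Without KAT7 mutant replicate 1 Msmo1 was still called lower.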

How the results depend on the processing

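Across 16 alternatives for each of 31 members, 468 of 496 values kept direction and side of the threshold, 20 calls were lost, 4 were gained and 4 fold changes of genes that were not called turned sign: Fdps (-0.033 to 0.045 with a library left out, negative without wild type replicate 1), Insig1 (-0.071 to 0.022, positive without wild type replicate 2) and Insig2 (-0.057 to 0.041, positive at 0.032 without KAT7 mutant replicate 1 and at 0.041 without wild type replicate 2). The calls of Mvd, Nsdhl, Srebf1, Elovl5, Scd2, Scd3, Scd4, Fads2 and Fads3 held in all 16. Those of Scd3 and Scd4 lay just inside the threshold in their least favourable alternative. The count of sterol enzymes called higher was 0 with library size only, with DESeq2, with the replicate block and at an adjusted p under 0.01, and 0 to 1 when each library was left out. Lower sterol enzymes numbered 3 at an adjusted p under 0.01 and 2 to 5 with a library left out. Lower SREBP control genes numbered 1 to 2 with a library left out. Higher fatty acid genes numbered 1 with no count filter (Fasn) and 0 to 1 with a library left out, and the median log2 fold change of the fatty acid genes ran from -0.24 to -0.17. The desaturase median, added after the data were seen, ran from -0.53 to -0.32 and its lower count from 5 to 6. At an adjusted p under 0.01, a total of 1034 genes of all tested were higher. The cause of these shifts was not tested.

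Deviations of same-numbered libraries correlated at -0.03 to 0.02, within the -0.04 to 0.05 of differently numbered libraries. Pairing by number was thus not seen, and a shared litter or batch was not tested. With the replicate block, which drops KAT7 mutant replicate 4, 1462 genes were higher and 1956 lower, and among the members only Sc5d lost its call (edgeR adjusted p = 0.0580). No scaling moved the median of all genes by over 0.1. At a few CPM, as for Elovl6 and Elovl1, depth limits what could be detected.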
